A study of Mus musculus with 9 samples.

Results

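Tuft-like medullary thymic epithelial cells (mTEC) were followed through 10 genes: Pou2f3, Trpm5, Avil, Dclk1, Il25, Gnat3, Gnb3, Gng13, Plcb2 and Chat. The genes were chosen by symbol as known tuft cell genes, and each was read from the RefSeq entry with the most normalised counts in the WT and Aire-KO pair. All 10 had an entry in every library, out of 23003 gene symbols in the pairs. Dclk1 had 7 RefSeq entries and each of the others had 1. RNA was sequenced from 9 libraries of mTEC sorted from pooled thymi of B6 mice aged 4 weeks, with 1 library in each group. The Aire pair held mTEChi (the mature, MHC class II high mTEC) from WT mice and from Aire-/- mice of the strain B6.129S2-Aire tm1.1Doi/J, here called Aire-KO. The Exp2 pair held mTEChi and mTEClo (MHC class II low) sorted from the same WT mice. A WT mTEChi series was collected at 0, 1.5, 3, 6 and 12 h of actinomycin D, a drug that blocks transcription, at 1 uM in the treated cells. The sort took CD45- Ly51- cells by I-A/E level and used no epithelial marker, so other CD45- Ly51- stromal cells were not gated out. Tuft cell markers were therefore read in bulk mTEC populations and not in sorted tuft cells.

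Tuft cells are rare chemosensory cells of mucosal epithelia. Receptors of the taste type couple to a G protein made of Gnat3 (gustducin), a Gnb subunit and Gng13, which act on the phospholipase Plcb2. The calcium this releases opens the cation channel Trpm5, and the cell answers with products such as the cytokine Il25 and acetylcholine, which Chat makes. The lineage depends on the POU domain transcription factor Pou2f3, and a cell type with the same genes lies in the thymic medulla.

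The libraries held between 1746825 reads, at 12 h of actinomycin D, and 195444567 reads, in mTEChi of Exp2, summed over RefSeq entries. Levels are given as CPM, the reads of an entry per 1000000 of these reads. For 3 reads this amounted to 0.0288 CPM in WT mTEChi of the Aire pair and 1.72 CPM at 12 h. The Aire entry with the most counts had 259 CPM in WT and 661 CPM in the library labelled Aire-KO, 444 CPM in mTEChi and 14.4 CPM in mTEClo of Exp2. The entry counts all exons, so it gave no check of the knockout, and since no column of this pair names its sample, WT is the one used as numerator in the study's code. mTEChi markers (Cd74, Cd80 and others) were at least 3-fold higher in mTEChi than in mTEClo for 8 of 10 genes, and mTEClo markers (Krt5, Krt14 and others) at least 3-fold lower for 6 of 7, so the Exp2 labels and their markers went the same way. Ratios within a pair carry 95% intervals that cover counting error only. In bulk RNA, fewer cells of a type and less RNA per cell cannot be told apart.

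The 250 bases before the start site were read from the RefSeq promoter table for 7 of the 10 genes (all but Pou2f3, Il25 and Gnb3), in 9 windows. POU factors of this class bind the octamer ATGCAAAT. Searched on both strands, these letters were in none of the 9 windows and in 1.60% of all 32851 windows of the same length. The shorter core ATGCAAA, which the octamer contains, was in 4.12% of all windows and, among the tuft cell genes, in that of Avil alone, with 1 match on each strand. The match on the gene's own strand lay 15 to 9 bases before the start and the reverse one (TTTGCAT) 115 to 109 bases before it. The windows of Avil and Plcb2 are shown because their levels followed the set most closely across libraries, and that of Trpm5 because it is the channel at the end of the cascade. Capitals mark the core and its reverse complement.
Avil (GRCm38.p6, chr10:127000459-127000708, plus strand): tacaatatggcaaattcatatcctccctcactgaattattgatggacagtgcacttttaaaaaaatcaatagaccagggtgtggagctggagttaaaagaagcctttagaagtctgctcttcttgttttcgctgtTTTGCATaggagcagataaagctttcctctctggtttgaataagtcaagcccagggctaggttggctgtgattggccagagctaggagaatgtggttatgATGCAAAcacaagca
Plcb2 (GRCm38.p6, chr2:118728439-118728688, minus strand): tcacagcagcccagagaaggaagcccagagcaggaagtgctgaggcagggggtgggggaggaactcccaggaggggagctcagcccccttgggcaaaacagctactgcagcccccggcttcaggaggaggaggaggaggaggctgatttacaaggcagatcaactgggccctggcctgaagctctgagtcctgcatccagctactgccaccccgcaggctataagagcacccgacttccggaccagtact
Trpm5 (GRCm38.p6, chr7:143094643-143094892, minus strand): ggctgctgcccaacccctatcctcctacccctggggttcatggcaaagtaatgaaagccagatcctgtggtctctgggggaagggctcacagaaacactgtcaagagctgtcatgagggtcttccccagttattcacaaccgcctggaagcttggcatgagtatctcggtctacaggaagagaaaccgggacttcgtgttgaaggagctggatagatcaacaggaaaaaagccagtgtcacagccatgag
Genes with like profiles thus differed in whether these letters were present, and a match describes the sequence and not a bound site.

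Across the 5 untreated libraries the tuft cell genes were highest in mTEClo and lowest in Aire-KO mTEChi or in mTEChi of Exp2. Their summed level was 1365 CPM in mTEClo, 858 CPM in WT of the Aire pair, 592 CPM in the 0 h library, 245 CPM in mTEChi of Exp2 and 190 CPM in the library labelled Aire-KO. The libraries of WT mTEChi thus differed among themselves, and 1 of them lay near Aire-KO. mTEClo was the highest library for 9 genes, the exception being Pou2f3. The library labelled Aire-KO was the lowest for 7 genes, and mTEChi of Exp2 for Il25, Gnb3 and Gng13. Avil alone gave between 24.3% and 28.2% of the summed CPM in each untreated library.

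Per length of entry (RPKM, the CPM per kilobase of entry), the order of the genes was similar across these libraries. Gng13 was highest in WT of the Aire pair with 90.2 RPKM, in Aire-KO with 41.8 RPKM and in mTEChi of Exp2 with 25.2 RPKM. Avil was highest in mTEClo with 127 RPKM and at 0 h with 55.1 RPKM. Chat was lowest in all 5 untreated libraries, between 0.455 RPKM in Aire-KO and 3.90 RPKM in mTEClo. Gng13 is the shortest of the entries with 414 bases, and 399 of the 773 exonic bases annotated for the gene overlap Chtf18 on the opposite strand, from which unstranded reads cannot be told apart. The Chtf18 entry had between 10.9 and 13.8 CPM in the untreated libraries. The overlaps of Trpm5 with Tssc4 (220 bases) and of Avil with Tsfm (165 bases) are small beside the exons of either gene.

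**Figure D1:**
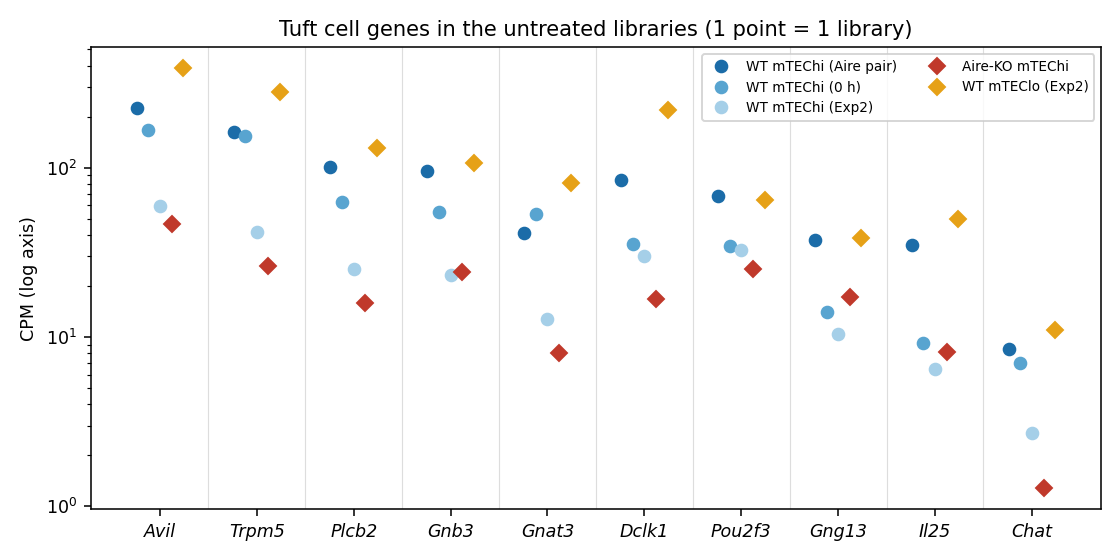
CPM (log axis) of each tuft cell gene in the 5 untreated libraries, 1 point per library, with circles for the 3 WT mTEChi libraries and diamonds for Aire-KO mTEChi and mTEClo. mTEClo is the top point for 9 genes, and mTEChi of Exp2 is the lowest circle for all 10.

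Pou2f3 encodes the transcription factor on which the tuft lineage depends (mm9 chr9:42932022-43018452, minus strand). It had 67.7 CPM in WT of the Aire pair and 25.3 CPM in Aire-KO, 32.5 CPM in mTEChi and 64.6 CPM in mTEClo of Exp2, and 34.2 CPM at 0 h. In normalised counts it was 2.28-fold higher in WT than in Aire-KO (95% interval 2.19 to 2.38) and 2.09-fold higher in mTEClo than in mTEChi (2.02 to 2.17). These were the smallest difference of the set between mTEClo and mTEChi and the second smallest in the Aire pair. WT of the Aire pair stood above mTEClo, by 1.05-fold in CPM.

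The G protein subunits behaved unequally. Gnat3, the alpha subunit (chr5:17468439-17525652, plus strand), had 41.1 CPM in WT and 8.08 CPM in Aire-KO, 12.8 CPM in mTEChi and 81.3 CPM in mTEClo of Exp2, and 53.3 CPM at 0 h. It was 4.34-fold higher in WT than in Aire-KO (4.06 to 4.63) and 6.70-fold higher in mTEClo than in mTEChi (6.40 to 7.03). It was the only member for which the 0 h library was the highest of the WT mTEChi. Gnb3, the beta subunit (chr6:124784258-124790293, minus strand), had 95.2, 24.3, 23.2, 107 and 54.9 CPM in the same order of libraries. Its ratio was 3.34 in the Aire pair (3.21 to 3.47) and 4.85 for mTEClo over mTEChi (4.68 to 5.04), and mTEChi of Exp2 stood just below Aire-KO. Gng13, the gamma subunit (chr17:25854116-25856351, plus strand), had 37.3, 17.3, 10.4, 38.6 and 14.1 CPM. It showed the smallest difference of the set in the Aire pair, at 1.84-fold (1.75 to 1.94), and was 3.89-fold higher in mTEClo than in mTEChi (3.67 to 4.12). Both the 0 h library and mTEChi of Exp2 lay below Aire-KO for Gng13.

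Downstream of the G protein, Plcb2 and Trpm5 had larger differences in the Aire pair than the 3 subunits. Plcb2, the phospholipase (chr2:118533253-118554174, minus strand), had 100 CPM in WT and 15.9 CPM in Aire-KO, 25.0 CPM in mTEChi and 131 CPM in mTEClo of Exp2, and 62.5 CPM at 0 h. It was 5.39-fold higher in WT than in Aire-KO (5.15 to 5.65) and 5.50-fold higher in mTEClo than in mTEChi (5.31 to 5.69). Trpm5, the channel (chr7:150255058-150280547, minus strand), had 163, 26.4, 41.7, 279 and 154 CPM in that order. Its ratios were 5.25 (5.07 to 5.44) and 7.02 (6.84 to 7.21), and for this gene WT of the Aire pair and 0 h lay within 1.06-fold of each other. The Exp2 mTEChi library was 3.68-fold below 0 h for Trpm5.

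Avil and Dclk1 encode cytoskeletal proteins that mark tuft cells, advillin being an actin binding protein of the villin family and Dclk1 a microtubule associated kinase. Avil (chr10:126437765-126458050, plus strand) had 225 CPM in WT and 46.7 CPM in Aire-KO, 59.5 CPM in mTEChi and 385 CPM in mTEClo of Exp2, and 167 CPM at 0 h. It was 4.11-fold higher in WT than in Aire-KO (4.002 to 4.23) and 6.80-fold higher in mTEClo than in mTEChi (6.66 to 6.95). Dclk1 (chr3:55046448-55342986, plus strand) had 84.9, 16.7, 30.3, 218 and 35.6 CPM in that order. It was 4.34-fold higher in WT than in Aire-KO (4.15 to 4.55) and 7.56-fold higher in mTEClo than in mTEChi (7.34 to 7.79). For Dclk1 the 0 h library lay with mTEChi of Exp2 and not with WT of the Aire pair.

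Il25 and Chat encode effectors of the cell. Il25 (chr14:55551608-55554671, plus strand), a cytokine that acts on innate lymphoid cells, had 34.9 CPM in WT and 8.17 CPM in Aire-KO, 6.47 CPM in mTEChi and 49.9 CPM in mTEClo of Exp2, and 9.20 CPM at 0 h. It was 3.64-fold higher in WT than in Aire-KO (3.41 to 3.89) and, at 8.09-fold (7.59 to 8.63), had the largest ratio of mTEClo over mTEChi in the set. Chat, choline acetyltransferase (chr14:33221389-33279095, minus strand), had 8.46, 1.28, 2.72, 10.95 and 7.03 CPM. It had the largest ratio of the set in the Aire pair, 5.64 (4.81 to 6.65), and was 4.23-fold higher in mTEClo than in mTEChi (3.79 to 4.73). The order of the Chat levels was the same as for Trpm5, Avil, Dclk1 and Plcb2.

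The Aire pair asks which transcripts depend on Aire, the nuclear protein that lets mature mTEC express tissue antigens. Each of the 10 tuft cell genes had more normalised counts in WT than in the Aire-KO library, 8 of them 3-fold or more, and the median ratio was 4.22. Over all 26761 entries tested the median was 1.02-fold, and 21.1% of entries were at least 3-fold higher in WT. Pou2f3 and Gng13 were the genes under 3-fold. With equal totals in place of the authors' size factors, the median of all entries moved up by 0.23 on the log2 scale and that of the tuft cell genes became 4.95-fold, the same shift applying to every entry.

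The Exp2 pair compares the mature and the MHC class II low compartment of the same mice. All 10 genes were lower in mTEChi than in mTEClo, 9 of them 3-fold or more, with a median ratio of mTEClo over mTEChi of 6.10. Among all 29212 entries 12.8% were at least 3-fold lower in mTEChi, and the median ratio of mTEChi over mTEClo was 1.01. Markers of other stromal cells moved with this comparison. The 8 fibroblast genes summed to 955 CPM in mTEClo and to between 127 and 241 CPM in the other untreated libraries, and the 8 endothelial genes to 260 CPM in mTEClo, 39.0 CPM in mTEChi of Exp2, 62.2 CPM in WT of the Aire pair, 25.3 CPM in Aire-KO and 37.2 CPM at 0 h. The endothelial genes went the same way as the tuft cell genes in both pairs, with 6 of 8 lower in mTEChi than in mTEClo by 3-fold or more and 5 of 8 higher in WT than in Aire-KO by 3-fold or more (median ratio 9.89). Tie1, an endothelial receptor named after its values were seen, was the 1 endothelial gene called higher in WT by edgeR (adjusted p 0.0272). None of these markers was at 0 in mTEClo, and their part in the result was not tested.

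The size of both differences depended on which WT mTEChi library was used. WT of the Aire pair was the highest of the 3 untreated WT mTEChi libraries for 9 genes, and mTEChi of Exp2 was the lowest for all 10. The highest of the 3 stood above the lowest by 2.09-fold (Pou2f3) to 5.39-fold (Il25), with a median of 3.84. All 10 genes were past 2-fold in this respect, as were 44.3% of all 23854 entries compared. In CPM the median ratio to Aire-KO was 4.95 with WT of the Aire pair, 2.92 with 0 h and 1.43 with mTEChi of Exp2. The median ratio of mTEClo to these libraries was 1.37, 2.02 and 5.81.

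Aire-KO lay below all 3 WT mTEChi libraries for 7 genes (Pou2f3, Trpm5, Avil, Dclk1, Gnat3, Plcb2 and Chat), where 45.9% of all entries did so. For Il25, Gnb3 and Gng13 the groups overlapped, mTEChi of Exp2 being lower than Aire-KO. mTEClo lay above all 3 for 9 genes, against 27.6% of entries, and overlapped with WT mTEChi for Pou2f3. When the 5 libraries were put in order for each gene, of 40 neighbouring levels 1 pair did not differ beyond counting error, mTEClo and WT of the Aire pair for Gng13 (1.03-fold, 0.986 to 1.09). For each of the 10 genes, however, the ratio of mTEClo to WT of the Aire pair (0.954 to 2.57) was smaller than the widest ratio among the WT mTEChi libraries.

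**Figure D2:**
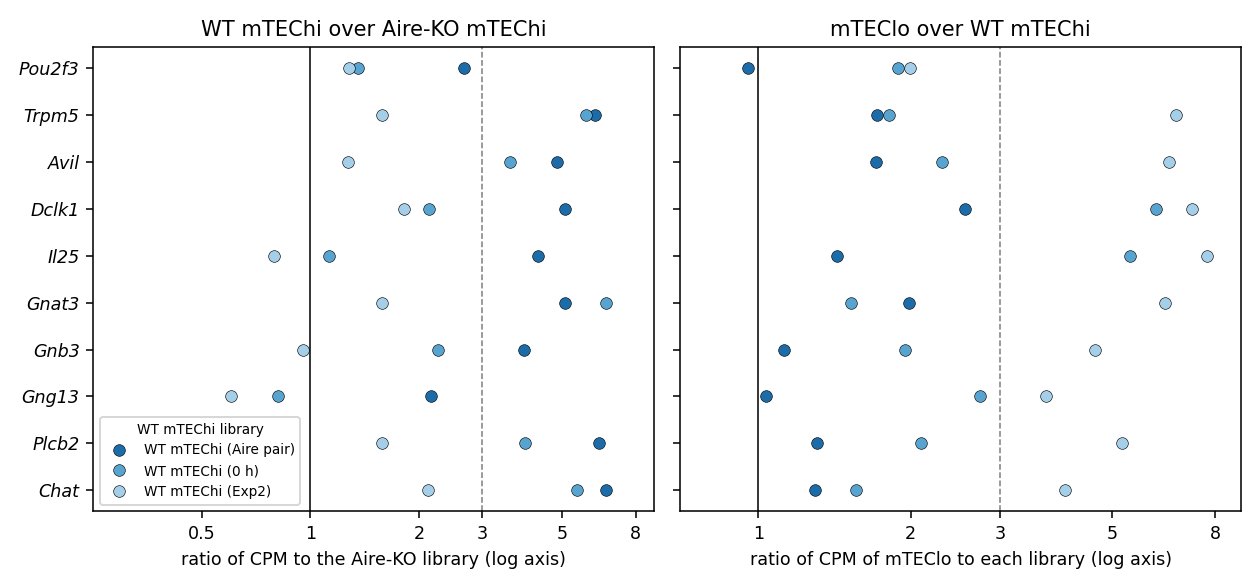
Ratio of CPM (log axes) of each of the 3 untreated WT mTEChi libraries over Aire-KO mTEChi, left, and of mTEClo over each of them, right, with a dashed line at 3-fold. The ratios of 1 gene differ with the WT library, and with mTEChi of Exp2 the ratio to Aire-KO is under 3 for all 10 genes.

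A test with the 3 untreated WT mTEChi libraries as the measure of spread called none of the 10 genes in either direction. In edgeR's quasi-likelihood test, with Aire-KO and mTEClo assumed to vary like WT mTEChi, the log2 difference of WT over Aire-KO ran from 0.0073 (Gng13) to 1.97 (Chat), with a median of 1.38, and with RLE in place of TMM factors Gng13 turned to -0.11. The adjusted p ran from 0.205 to 1.00. An unadjusted p under 0.05 was found for 1 gene, Chat (SE 0.79), and for 5074 of 24703 entries. DESeq2 also called 0 of 10. It had 4 at an unadjusted p under 0.05 (Chat, Gnat3, Plcb2 and Trpm5), beside 5377 of 25337 entries. At this threshold (adjusted p under 0.05) edgeR called 8.21% of 24703 entries higher in WT. Such p-values measure only the spread between these libraries, and the sources used here do not say that they came from separate mice.

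For mTEChi against mTEClo, edgeR gave log2 differences between -0.65 (Pou2f3) and -2.23 (Dclk1, SE 0.65). Adjusted p ran from 0.107 for Dclk1 to 0.652 for Pou2f3, so none of the 10 was called, where 1.44% of entries were called lower in mTEChi. Dclk1 was also the only one of the 10 with an unadjusted p under 0.05, beside 4963 of 24703 entries. DESeq2 called Dclk1 lower in mTEChi (log2 difference -2.30, adjusted p 0.0128), beside 927 of 25337 entries. In edgeR without WT of the Aire pair, Dclk1 and Il25 were called lower in mTEChi, with adjusted p of 0.0324 and 0.0336. In that fit 447 of 24722 entries were called lower. Both comparisons use the same WT libraries, so they are not independent of each other.

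The 7 Dclk1 entries did not move alike. Entries NM_001195538 and NM_019978 had the same reads in every library, the most of the 7. The longest forms, at 6942 to 7851 bases, were 4.34-fold to 4.67-fold higher in WT than in Aire-KO and 7.56-fold to 8.10-fold higher in mTEClo than in mTEChi. NM_001111053, of 6026 bases, was 1.95-fold higher in WT (1.83 to 2.07) and 4.73-fold higher in mTEClo (4.52 to 4.95). NM_001195540, of 5165 bases, was 1.21-fold higher in WT (1.11 to 1.32) and 4.25-fold higher in mTEClo (4.001 to 4.51). The shorter entries thus differed less than the long ones in both pairs, beyond counting error.

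NM_001111053 has the length of an annotated transcript of 7 exons whose last exon spans chr3:55270495-55275239 (mm9, 4745 bases), an end that lies upstream of the end of the gene. Reads that fall in exons shared by several forms count for each of them. Long and short forms were therefore not separated here. The 4.34-fold difference is that of the reads in the exons of the chosen entry, and not that of all forms summed. With reads summed over all Dclk1 entries, the ratio of WT over Aire-KO was smaller.

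**Figure D3:**
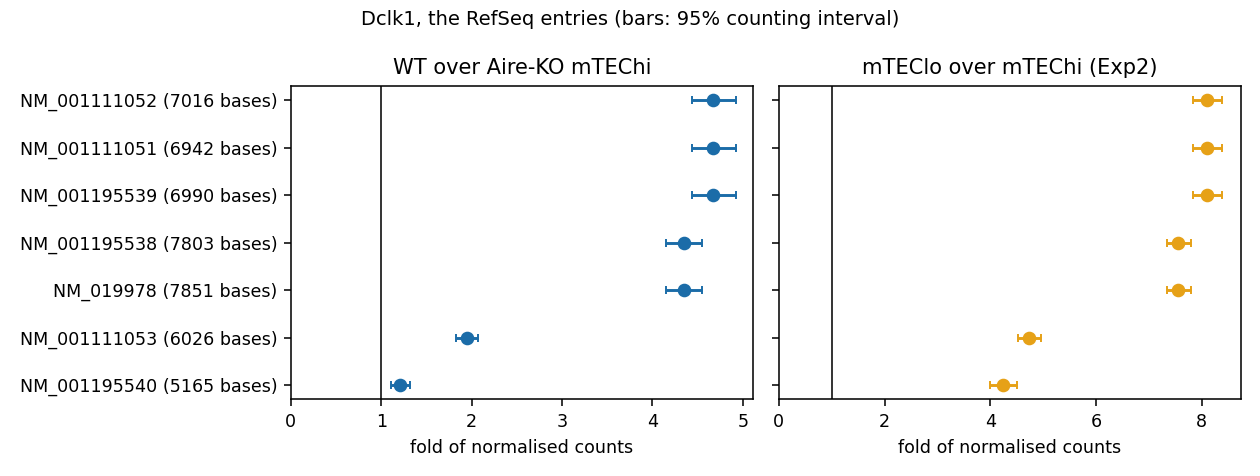
Fold of normalised counts for each of the 7 Dclk1 RefSeq entries, WT over Aire-KO mTEChi on the left and mTEClo over mTEChi on the right, with 95% counting intervals and the entry length in brackets. The 5 entries of 6942 bases or more lie between 4.34 and 4.67 on the left and between 7.56 and 8.10 on the right, above the 2 shorter ones.

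Actinomycin D shows how levels run down once transcription stops. Among tuft cell genes, Il25, Pou2f3 and Gnat3 were the furthest below the 0 h library at 6 h, whereas Gnb3 stayed near it and Gng13 stood above it. The 6 h library had 31.5% of entries at 0 reads, against 17.9% at 3 h and 26.9% at 12 h. It held 11295960 reads, more than the 1746825 at 12 h. Counting intervals do not cover this limit of the 6 h values, and its cause was not tested. The median log2 change against 0 h was -0.42, -0.30, -1.07 and -1.97 at the 4 treated times. Over all 23850 entries compared it was -0.13, -0.18, -0.54 and -0.60. The 0 h library was made with another kit and read from both ends, and in these values the kit cannot be told apart from the treatment. Per library total, each value is a share of the remaining RNA and not an amount.

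At least 2-fold lower than at 0 h were 0 of the 10 genes at 1.5 h, 1 at 3 h (Il25), 5 at 6 h and 7 at 12 h. Of all entries 5.28%, 21.9%, 40.4% and 40.7% were past this limit at these times. Against the 1.5 h library, made with the same kit, the median log2 change of the 10 genes was 0.02 at 3 h, -0.52 at 6 h and -1.25 at 12 h, and that of all entries -0.06, -0.36 and -0.43.

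Pou2f3 had 86.7% of its 0 h CPM at 1.5 h, 81.2% at 3 h, 19.1% at 6 h (74 reads) and 6.69% at 12 h (4 reads). The transcript of this factor thus stayed near its 0 h share for 3 h and was low from 6 h. Il25 had 64.3% at 1.5 h and 31.9% at 3 h. No Il25 read was found at 6 h and 12 h. By counting error alone, with a limit of 3 reads, this is at least 34.6-fold and at least 5.36-fold lower than at 0 h. The limit does not cover the 31.5% of entries at 0 reads in the 6 h library, so the 6 h bound may be too high. Il25 is a secreted signal, and at 3 h it had the lowest share of the set. Chat had 59.9%, 81.6% and 63.0% at 1.5, 3 and 6 h, and 0 reads at 12 h, at least 4.09-fold lower by the same limit.

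In the cascade, Gnat3 had 56.3%, 62.0%, 7.64% and 24.7% of its 0 h CPM at 1.5, 3, 6 and 12 h. Gnb3 had 89.1%, 102%, 123% and 95.9%, and at 3 h and 12 h its ratio to 0 h was 1 within counting error. Transcripts of the alpha and beta subunits of the G protein were thus far apart at 6 h. Gng13 had 14.1 CPM at 0 h and 25.9, 23.1, 87.2 and 26.9 CPM at the treated times, a ratio of 6.20 at 6 h (5.70 to 6.74). The overlapping Chtf18 entry had 15.0 CPM at 6 h and 2.29 CPM at 12 h, over 3106 bases. The 6 h value of Gng13 was the largest share of the set in that library, 23.7% of the summed CPM.

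Trpm5 had 72.4%, 123%, 38.2% and 26.5% of its 0 h CPM at these times and Plcb2 83.3%, 134%, 62.2% and 52.2%. Both were above 0 h at 3 h alone. Avil had 77.7%, 70.5%, 50.9% and 46.9%, and Dclk1 60.3%, 51.1%, 44.5% and 24.1%. These cytoskeletal genes were lower at each later time than at the one before. Dclk1 at 12 h rested on 15 reads. At 6 h all 179 Dclk1 reads were those of the entry NM_001111053, and the 3 entries of 6942 to 7016 bases had 0 reads there against 1409 to 1631 at 0 h. The longest entries, NM_001195538 and NM_019978, had the same 179 reads at 6 h, and NM_001195540 had 0. The 6 h value thus came from bases counted in NM_001111053 and in these longest entries, not from a region of the short form alone.

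**Figure D4:**
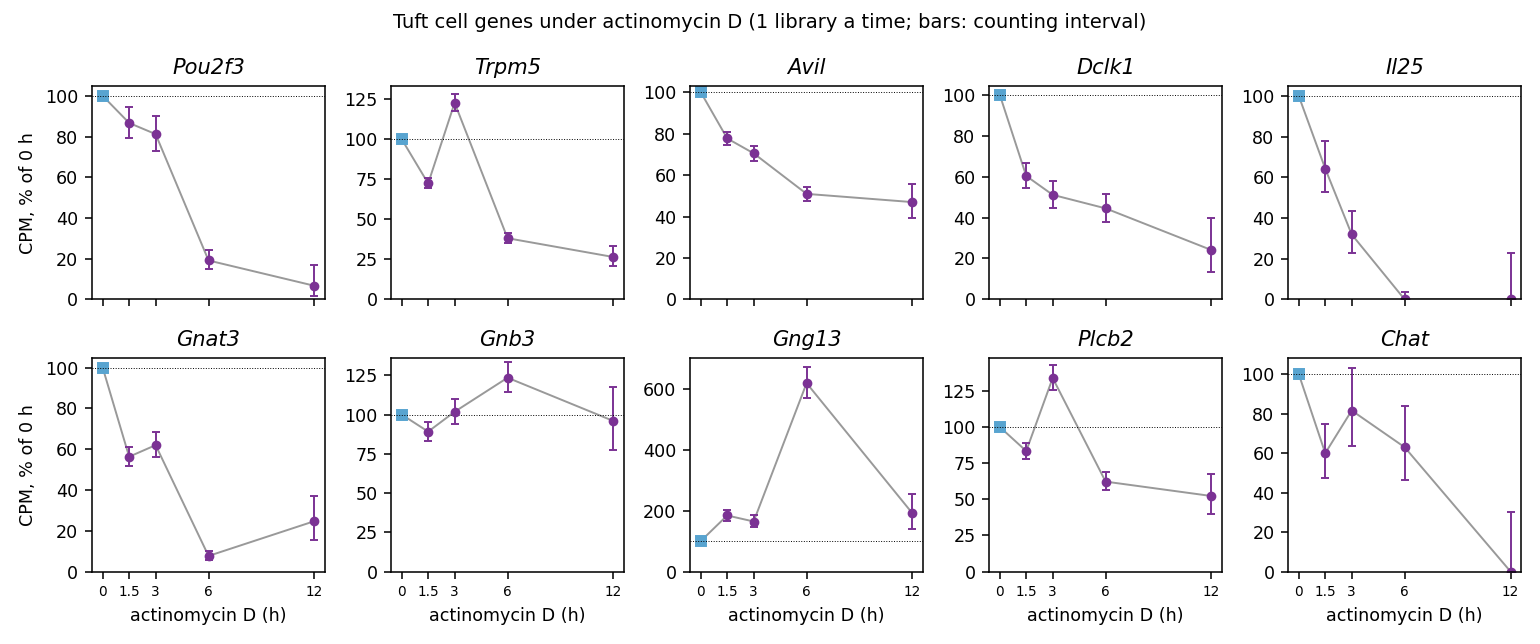
CPM as a percentage of the 0 h library for each tuft cell gene over hours of actinomycin D, 1 library per time, with 95% counting intervals, a dotted line at 100% and a separate vertical scale per gene. Il25 reaches 0 reads at 6 h, Pou2f3 is at 19.1% there, Gnb3 stays near 100% and Gng13 peaks at 6 h.

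A slope over the 4 treated libraries, fitted in edgeR, was called for none of the 10 genes and for 0% of 20652 entries. Pou2f3 (-0.38 per h on the log2 scale, SE 0.10, adjusted p 0.290) and Trpm5 (-0.18 per h, SE 0.06, adjusted p 0.424) had an unadjusted p under 0.05, as had 1896 entries. DESeq2 called 400 entries and none of the 10. It gave no adjusted p for Pou2f3, Dclk1, Il25, Gnat3, Gng13 and Chat, so these genes could not be called by it. Without the 6 h library edgeR called Pou2f3 and Trpm5, with adjusted p of 0.00053 and 0.0109, beside 1874 of 20452 entries. Without the 12 h library it called Gnat3 downwards and Gng13 upwards, with adjusted p of 0.0201 and 0.0259. Of 20338 entries, 518 were then called downwards and 87 upwards. Which genes passed thus depended on single libraries.

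Other genes of the tuft cell programme were read from lists. Of 25 further tuft cell genes with an entry, 10 were at least 3-fold higher in WT than in Aire-KO, beside 21.1% of all entries. At least 3-fold lower in mTEChi than in mTEClo were 9 of the 25, beside 12.8% of entries. The median ratios were 2.65 for WT over Aire-KO and 2.13 for mTEClo over mTEChi. In edgeR 2 of the 25 genes were called higher in WT, Ascl2 (log2 difference 2.96, SE 0.67, adjusted p 0.0366) and Siglecf (3.52, SE 0.68, adjusted p 0.0230). Both are named after their values were seen. Ascl2 is a transcription factor known from intestinal stem cells, and Siglecf a lectin receptor found on tuft cells and eosinophils. Ascl2 had 2.71 CPM in WT, 2.37 in mTEChi of Exp2, 2.46 at 0 h and 0.266 in Aire-KO. In mTEClo it had 1.43 CPM, below the WT mTEChi libraries, whereas Siglecf had 4.37 CPM there, above them. The genes with the highest CPM in the list, keratins Krt8 and Krt18 of simple epithelia, had ratios of 0.856 and 0.860 for WT over Aire-KO. Cd24a, a surface marker, had 1.78 and Rgs2, which limits G protein signals, 2.45.

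Taste-type and metabolite receptors, the input of the cascade, went the way of the 10 genes in fold. Of 13 receptors past 10 normalised counts in the Aire pair, 12 were at least 3-fold higher in WT, beside 21.1% of all entries. The minimum is on the sum of both libraries, so a low receptor can pass it through its WT reads alone. In Aire-KO 3 of the 16 listed receptors had 0 reads. The median ratio was 5.97. Of 16 receptors in the Exp2 pair, 11 were at least 3-fold lower in mTEChi, beside 12.8% of entries. The median ratio of mTEClo over mTEChi was 5.30. The receptor levels were low, all 16 together summing to between 10.2 and 60.9 CPM in the untreated libraries. Tas1r3, a subunit of the sweet and umami receptors, was the highest with 14.0 CPM in WT, 5.49 in Aire-KO, 5.94 and 16.7 in mTEChi and mTEClo of Exp2, and 13.1 at 0 h. Its ratio of WT over Aire-KO was 2.17, under the 3-fold limit. Tas2r108, a bitter receptor, was 5.93-fold higher in WT and 7.77-fold higher in mTEClo. In edgeR, Ffar3, a receptor for short-chain fatty acids named after its values were seen, was called higher in WT (log2 difference 3.52, SE 0.83, adjusted p 0.0431) and none of the 16 was called in the Exp2 direction. Ffar3 had 0.930 CPM in mTEClo and 1.46 CPM in mTEChi of Exp2, against the direction of the tuft cell genes.

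The enzymes of eicosanoid synthesis split. Alox5, which starts leukotriene synthesis, was 2.29-fold higher in WT than in Aire-KO and 6.67-fold higher in mTEClo than in mTEChi, as the tuft cell genes were. Ptgs2, the inducible cyclooxygenase, went the other way, with 956 CPM in mTEChi and 85.7 CPM in mTEClo of Exp2. It was called higher in mTEChi by edgeR (log2 difference 3.06, SE 0.53, adjusted p 0.0375), where 1.90% of entries were. Of the 9 genes 2 were at least 3-fold higher in WT, beside 21.1% of all entries. In the Exp2 pair 3 were at least 3-fold lower in mTEChi, beside 12.8% of entries, and 2 at least 3-fold higher, beside 11.8%. Tbxas1, thromboxane synthase, was called higher in WT (adjusted p 0.0255, edgeR) at 1.14 CPM in WT and 0.042 CPM in Aire-KO.

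The genes of the cytokine circuit that Il25 feeds in other tissues were mixed. Of the 11 genes 3 were at least 3-fold higher in WT than in Aire-KO, beside 21.1% of all entries, and 1 at least 3-fold lower. In the Exp2 pair 5 were at least 3-fold higher in mTEChi than in mTEClo, beside 11.8% of entries, and 1 at least 3-fold lower, beside 12.8%. By edgeR 3 were called higher in mTEChi (Il13, Il2rg and Il4, adjusted p 0.0375, 0.0431 and 0.0443), beside 1.90% of entries. Il13, a cytokine to which tuft cells respond in the gut, had 110 CPM in WT and 199 CPM in Aire-KO, 141 CPM in mTEChi and 3.61 CPM in mTEClo of Exp2, and 61.0 CPM at 0 h. Il25 and Il13 therefore stood in opposite order in the Exp2 pair. Il17rb, the Il25 receptor, and the cytokine Il33, named after their values were seen, had profiles over the untreated libraries nearer to the median of the tuft cell genes (log2 distance 1.27 and 1.31, ranks 208 and 240 of 11374 symbols) than those of Pou2f3 and Gng13 (1.45 and 1.61). Il4ra, the receptor chain shared by Il4 and Il13, differed little, with 231 to 349 CPM over the untreated libraries.

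Partners of Chat in acetylcholine handling differed from Chat. Slc18a3, the vesicular acetylcholine transporter, had 66 reads in WT, 385 in mTEChi of Exp2, 184 at 0 h and 0 in Aire-KO. Slc5a7, the choline transporter, had 38, 394, 118 and 0. Both were called higher in WT by edgeR (adjusted p 0.0160 and 0.0276), were named after their values were seen, and are the only 2 of the 7 cholinergic genes called. In CPM, mTEChi of Exp2 was above WT of the Aire pair for both (1.97 and 0.633 for Slc18a3, 2.02 and 0.364 for Slc5a7), whereas for Chat it was the lowest WT mTEChi. In mTEClo Slc18a3 had 0.715 CPM and Slc5a7 2.18 CPM. Ache, which breaks acetylcholine down, had, among the untreated libraries, its highest CPM at 0 h (486) and its lowest in mTEClo (22.6).

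Relatives of the 10 genes within their families were counted in the same way. Of 50 paralogs 13 were at least 3-fold higher in WT, beside 21.1% of all entries. In the Exp2 pair 4 were at least 3-fold lower in mTEChi, beside 12.8% of entries, and 12 at least 3-fold higher, beside 11.8%. Dclk3, a kinase related to Dclk1, was called higher in WT than in Aire-KO (log2 difference 4.68, SE 0.68, adjusted p 0.0107) and higher in mTEChi than in mTEClo (3.23, SE 0.62, adjusted p 0.0413) by edgeR. Il17b, of the cytokine family of Il25, was called in the same directions (6.45, SE 0.81, adjusted p 0.00922, and 3.82, SE 0.68, adjusted p 0.0375). Dclk1 and Il25 were higher in WT as well but lower in mTEChi than in mTEClo, so the relatives differed from them in the second pair. Both relatives were named after their values were seen. Gsn, an actin severing protein of the family of Avil, was called lower in mTEChi (log2 difference -2.42, SE 0.48, adjusted p 0.0423), and the widely used G protein subunits Gnb1, Gnb2 and Gnai2 had ratios of WT over Aire-KO between 0.780 (Gnai2) and 0.954 (Gnb2).

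Marker lists of other mTEC states were read beside these. Of 13 corneocyte-like genes 12 were at least 3-fold higher in WT than in Aire-KO (median ratio 7.84), with Krt10 at 26.0-fold, and 1 was at least 3-fold lower in mTEChi than in mTEClo. Of 8 microfold-like genes 4 were at least 3-fold higher in WT and none was at least 3-fold lower in mTEChi. Of 13 neuroendocrine-like genes the counts were 2 and 2. The shares of all entries were 21.1% and 12.8%. The tuft cell and endothelial lists had high shares in both pairs, and no test of the difference between lists was made.

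Dendritic cell and macrophage markers moved with the Aire pair too. Beside 21.1% of all entries, 10 of 13 dendritic cell and macrophage genes were at least 3-fold higher in WT. Beside 8.21% of entries, edgeR called 7 of the 13 genes higher in WT (Itgam, Adgre1 and C1qa among them). Their summed level was 694 CPM in WT and 354 CPM in Aire-KO, most of it Lyz2 (574 and 336 CPM), and 568, 80.3 and 280 CPM in mTEChi and mTEClo of Exp2 and at 0 h, and Cd209a and Fcgr1 were at 0 in Aire-KO. Beside 21.1% of all entries, 3 of 9 mast cell, basophil and innate lymphoid cell genes were at least 3-fold higher in WT, with Cpa3 and Mcpt4 at 0 reads in Aire-KO. Their sum was 583 CPM in WT and 1231 CPM in Aire-KO, mostly Hdc. Of 10 thymocyte genes 3 were at least 3-fold higher and 1 at least 3-fold lower in WT, at sums of 28.8 to 58.8 CPM in the untreated libraries. The part of these markers in the result on the tuft cell genes was not tested. In the Exp2 pair 8 of the 13 dendritic cell and macrophage genes were at least 3-fold higher in mTEChi, beside 11.8% of all entries. So were 5 of the 9 mast cell, basophil and innate lymphoid cell genes. These went against the direction of the tuft cell genes. The thymocyte genes were lower in mTEChi at the median (2.02-fold), with 2 of 10 at least 3-fold lower and 1 at least 3-fold higher.

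The genes most like the 10 in their pattern were sought by the distance between log2 CPM profiles over the 5 untreated libraries, each centred on its mean, among 11374 symbols with at least 10 CPM in 1 library. The 8 nearest to the median profile of the tuft cell genes were Krt6a (distance 0.33), Vav1 (0.37), Entpd3 (0.41), Aldh2 (0.46), Pik3cg (0.46), Lrmp (0.47), Bmx (0.53) and Eps8l1 (0.63). Vav1, Lrmp and Bmx, which encode a signalling protein, a membrane protein and a tyrosine kinase, are on the list of further tuft cell genes and the other 5 are on none of the tuft cell lists. Krt6a, a keratin of stratified epithelium, had 86.7 CPM in WT and 18.2 CPM in Aire-KO, 31.1 and 136 CPM in mTEChi and mTEClo of Exp2, and 65.0 CPM at 0 h. Among the members, Avil (0.19) and Plcb2 (0.25) were nearer to the median than any other symbol. The members define this median, so their nearness to it is partly built in. Pou2f3 (1.45) and Gng13 (1.61) were the furthest, with 352 and 532 other symbols nearer. With 5 libraries that share their sorts and kits, such likeness is a description.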

How the data were processed

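RNA was read in 9 libraries, 1 per group. Per the labels and the methods, the authors made poly-A libraries (TruSeq, unstranded, paired-end for both pairs and 0 h; SMARTer with Nextera, single-end, for treated cells), filtered reads with CASAVA, aligned them to mm9 with Bowtie 1.0.0 and counted them in RefSeq exons with bedtools. The deposited actinomycin D values are counts. The deposited signal of either pair (normalised counts) was obtained by the authors from counts over DESeq size factors; 100% of values were whole within 0.1 read of a common step, so reads were recovered. The authors' own folds and p-values were not used.

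The members and gene lists were chosen with earlier results of these data known. Folds took entries with at least 10 normalised counts over the pair; actinomycin D changes had 0.5 reads added and took entries with 10 reads. Fits over all filtered entries (edgeR 4.0.16, quasi-likelihood, TMM, Benjamini-Hochberg at 0.05; DESeq2 1.42.0 as alternative; checked on simulated data) took the 3 untreated WT mTEChi libraries with Aire-KO and mTEClo, leaving 2 residual degrees of freedom. Named were all members, the 4 genes of each list with the highest mean CPM over untreated libraries, the 8 nearest profiles and Aire; further genes, such as those called within a list, were named after their values were seen. Alternatives were other scalings, no filter, summed Dclk1 entries, another WT or reference library, and leaving out each library. Promoters came from RefSeq (GRCm38.p6) and gene positions from gencode vM1 (mm9).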

Additional observations from a re-analysis of the deposited data

How the results depend on the processing

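The count of genes at least 3-fold higher in WT than in Aire-KO (8) was 0 with mTEChi of Exp2 as WT and 5 with 0 h as WT, by CPM. The count at least 3-fold lower in mTEChi than in mTEClo (9) was 0 with WT of the Aire pair as mTEChi and 2 with 0 h. On the log2 scale, Il25, Gnb3 and Gng13 turned to -0.34, -0.069 and -0.73 for WT over Aire-KO with mTEChi of Exp2, Gng13 to -0.30 with 0 h, and Pou2f3 to 0.067 for mTEChi over mTEClo with WT of the Aire pair. DESeq2 called 1 gene lower in mTEChi where edgeR called 0, and leaving out 1 library gave 0 to 2; for slopes this range was also 0 to 2.

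Median log2 changes under actinomycin D were -0.95, -0.73 and -1.44 at 1.5, 3 and 6 h against WT of the Aire pair. Against mTEChi of Exp2 they turned to 1.07, 1.11, 0.50 and 0.0042 at 1.5, 3, 6 and 12 h, and against 1.5 h they were 0.022 (turned), -0.52 and -1.25 at 3, 6 and 12 h. The cause was not tested. The other 39 recomputed counts and medians kept their direction, though not all kept their exact size. With a 2-fold limit the counts of 8 and 9 became 9 and 10. With TMM totals the median at 1.5 h against 0 h was -0.295 in place of -0.415. Scaling the pairs by TMM factors or equal totals turned no direction of the 10 genes; in the edgeR fit, leaving out WT of the Aire pair turned Il25 to -0.40 and Gng13 to -0.84 for WT over Aire-KO.

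Over all entries, edgeR called 2049 for WT against Aire-KO, DESeq2 3538, and edgeR without 1 library 1487 to 2910. For mTEChi against mTEClo these were 826, 2698 and 310 to 2727, with 310 without mTEChi of Exp2 and 2727 without 0 h. For slopes, edgeR called 0, DESeq2 400, and edgeR 1874 without 6 h and 605 without 12 h. No paired analysis was possible because the groups compared share fewer than 2 replicate numbers. At 12 h a gene with 1.72 CPM gives 3 reads, which limits Chat, Il25 and Pou2f3 there.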
